A study of Homo sapiens with 9 samples.

Results

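The enzymes of glycogen metabolism around PYGB, the brain form of glycogen phosphorylase, were followed in MP41 cells after transfection of miR-16. The list held 9 genes taken by symbol: PYGB and PYGL (phosphorylases), GYS1 (muscle glycogen synthase), GYG1 (glycogenin-1, the primer), GBE1 (branching enzyme), UGP2 and PGM1 (supply of activated glucose), and PHKA1 and PHKB (subunits of phosphorylase kinase). Of these, 8 had a row among the 14839 genes of the normalized table, and PHKA1 was not analysed here. The question was whether the higher level of PYGB with miR-16 was shared by the other enzymes of the pathway. PYGB was known to be higher with miR-16 when the list was drawn up, so its own values are given as a description.

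MP41 is a cell line of uveal melanoma, a tumor of the pigment cells of the eye. The cells were transfected at 66 nM with a synthetic miR-16 or with the control mimic miR-CTR, with Lipofectamine RNAiMAX, and polyA RNA was sequenced after 6, 12, 24, and 48 h. A further library labelled miR-CTR 0 h gave the state before transfection. All 9 conditions came from this single cell line and each had 1 library, so no spread between replicates could be measured. The mimics were compared within each time, and no test that takes the 4 times as replicates was run. Table columns carried time numbers rather than hours, and these were put in the order of the labelled times.

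Glycogen is a branched polymer of glucose that cells build as a store. Glycogenin starts the chain, glycogen synthase extends it with UDP-glucose made by UGP2 from the glucose 1-phosphate that phosphoglucomutase provides, and the branching enzyme adds branch points. Glycogen phosphorylase releases glucose 1-phosphate from the chains, and phosphorylase kinase switches phosphorylase on. Mammals have separate genes for the brain, liver, and muscle forms of phosphorylase.

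The sequences of the transfected RNAs and the matches to them in the glycogen genes are shown first, because the comparison is between these RNAs. Capitals mark the seed (bases 2 to 8 from the 5′ end), and the miR-16 sequence is from RefSeq (GRCh38.p14).
miR-16: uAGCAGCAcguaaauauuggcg
control sequence: uUGUACUAcacaaaaguacug
The control sequence is that of a biotinylated oligonucleotide of the same study. In its list this oligonucleotide and the miR-16 one stand under each other's names, which was taken as a swap, and the transfected miR-CTR was assumed to have the same sequence. All statements on control matches rest on that assumption.

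A seed match was an exact run in the longest annotated 3′UTR (GENCODE version 29, GRCh38) on the transcript strand: TGCTGCTA, TGCTGCT, or GCTGCTA for miR-16 and TAGTACAA, TAGTACA, or AGTACAA for the control sequence, where the shorter runs lie within the longest. Of the 8 genes, 2 held a miR-16 match (25%), against 3381 of 11570 measured protein-coding genes (29.2%). The 3 matches of either kind in the 8 genes are printed with 10 bases on each side, the match in capitals, and the coordinates are those of the match.
PYGB, control match, chr20:25296744-25296750, forward strand: cagagttgacAGTACAAagggtcgtgg
GYS1, miR-16 match, chr19:48969218-48969224, reverse strand: tgcagaggggTGCTGCTcctaaacccc
PGM1, miR-16 match, chr1:63659916-63659922, forward strand: cctcctgcatTGCTGCTgcgtgggtat
PYGB held no miR-16 match in this 3′UTR and GYS1 and PGM1 no control match. A control match was found in 1 of the 8 genes (12.5%) and in 1705 of the 11570 (14.7%), so neither share stood out from that of all genes.

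PYGB is encoded on the forward strand of chromosome 20 (25248069 to 25298014, GRCh38). Its normalized expression, the log2 of its reads divided by the library's size factor, plus 1, was 13.26 at 0 h. With miR-CTR it was 13.17, 12.95, 12.58, and 12.48 at 6, 12, 24, and 48 h. With miR-16 it was 13.38, 13.36, 13.45, and 13.53 at the same times. The 4 miR-16 libraries all lay above the 0 h library and the 4 miR-CTR libraries all below it, so the groups did not overlap. Over all genes, the 4 values with each mimic did not overlap in 7.56%, and this particular order, miR-16 above and miR-CTR below 0 h at all 4 times, was seen in 0.519%. Taking the miR-CTR from the miR-16 value gave a logFC of 0.21, 0.41, 0.87, and 1.05, in order of time. Averaged over 24 and 48 h, the late logFC was 0.96 (95% counting interval 0.93 to 0.99), a 1.95-fold difference, and ranked 202 from the top of the 14839 genes. Between 5830 and 11478 reads of PYGB per library stood behind these values, and the interval covers the counting of reads only.

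**Figure D1:**
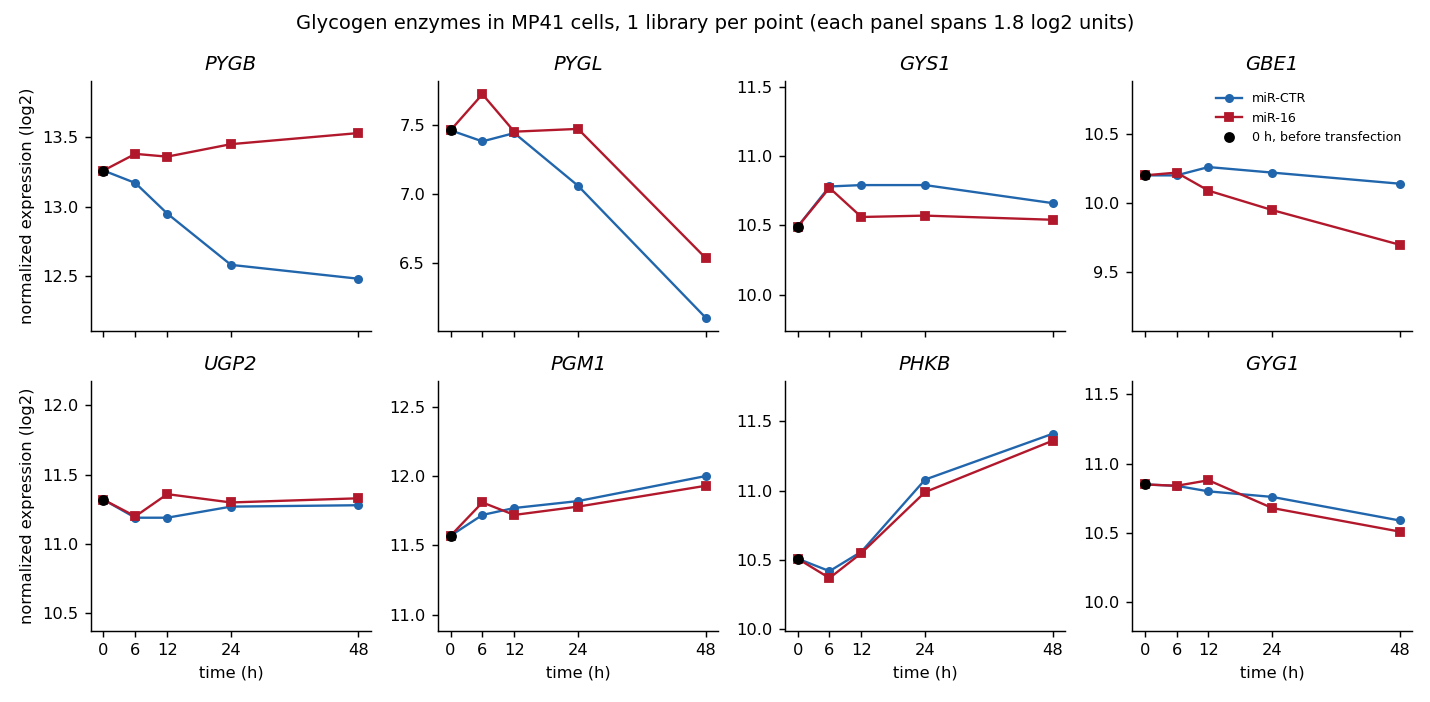
Normalized log2 expression (y axis) of the 8 measured genes against time in h (x axis), 1 library per point; blue circles are miR-CTR, red squares miR-16, and the black point is the shared 0 h library. Only the PYGB panel shows all 4 miR-16 points above and all 4 miR-CTR points below the 0 h value, and PHKB climbs with both mimics.

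PYGL, the liver form of phosphorylase, lies on the reverse strand of chromosome 14 (50857891 to 50944736). At 0 h PYGL was at 7.46 (normalized log2). The miR-CTR libraries gave 7.38, 7.44, 7.06, and 6.11. The miR-16 libraries gave 7.72, 7.45, 7.47, and 6.54. The miR-16 library was the higher of the pair at every time, but the groups overlapped because both were lowest at 48 h. Over all genes, 17.7% were higher with miR-16 at all 4 times. The late logFC was 0.42, below the threshold of 0.5 used for calls, with a 95% counting interval of 0.14 to 0.70 that included the threshold. PYGL had only 80 to 190 reads per library, and at 48 h alone its interval ran from -0.01 to 0.87. Both phosphorylases thus had a positive late logFC, and the counting error of PYGL leaves its size uncertain. PYGM, the muscle form, was not analysed here.

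The levels of the phosphorylases differed far more than their changes. Per kb of exon, PYGB had 2192 normalized reads at 0 h and PYGL 36.5, so PYGB made up 98.0 to 99.3% of the phosphorylase transcripts measured in every library. At 48 h PYGB had 2644 normalized reads per kb with miR-16 and 1277 with miR-CTR. PYGL had 19.2 and 14.2. In these bulk RNA samples, fewer expressing cells and less RNA per cell cannot be told apart.

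GYS1, which extends the chains, lies on the reverse strand of chromosome 19 (48968125 to 48993310) and carries the miR-16 match printed above. Before transfection GYS1 was at 10.49. At 6, 12, 24, and 48 h the values with miR-CTR were 10.78, 10.79, 10.79, and 10.66. Those with miR-16 were 10.77, 10.56, 10.57, and 10.54. The 12, 24, and 48 h libraries with miR-16 lay below all 4 miR-CTR libraries, while the 6 h library did not. The late logFC was -0.17 (counting SE 0.036), short of the threshold. GYS1 and PHKB were lower with miR-16 at all 4 times, as were 16.7% of all genes. GYS2, the liver synthase, was not analysed here.

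GYG1, on which a new glycogen chain starts, lies on the forward strand of chromosome 3 (148991341 to 149027668). Before transfection GYG1 stood at 10.85. Its values after miR-CTR were 10.84, 10.80, 10.76, and 10.59. Its values after miR-16 were 10.84, 10.88, 10.68, and 10.51. Both series were lowest at 48 h and overlapped, and the late logFC was -0.08 (counting SE 0.036). The second glycogenin, GYG2, started at 11.44 and ended at 12.33 with miR-CTR and 12.67 with miR-16, with a late logFC of 0.32 (counting SE 0.021).

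GBE1, which makes the branch points, lies on the reverse strand of chromosome 3 (81489699 to 81762161). GBE1 stood at 10.20 before transfection. The miR-CTR series read 10.20, 10.26, 10.22, and 10.14. The miR-16 series read 10.22, 10.09, 9.95, and 9.70. The miR-CTR libraries stayed within 0.12 of each other, and the 24 and 48 h libraries with miR-16 were the lowest of the 9. The late logFC of -0.355 (counting SE 0.046) was the most negative of the 8 genes, at percentile 11.5 of all genes, and did not reach -0.5. GBE1 held no miR-16 seed match.

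UGP2, which makes UDP-glucose, lies on the forward strand of chromosome 2 (63840940 to 63891562). UGP2 stood at 11.32 before transfection. It read 11.19, 11.19, 11.27, and 11.28 after miR-CTR. It read 11.20, 11.36, 11.30, and 11.33 after miR-16. All 9 libraries lay within 0.17, the narrowest range of the 8 genes, and the late logFC was 0.04 (counting SE 0.029). Like PYGB and PYGL, UGP2 was higher with miR-16 at all 4 times, by 0.01 to 0.17, as were 17.7% of all genes. PGM1, the phosphoglucomutase that links glucose 1-phosphate to glycolysis, lies on the forward strand of chromosome 1 (63593276 to 63660245) and has the other miR-16 match. From 11.57 at 0 h it went to 11.72, 11.77, 11.82, and 12.00 with miR-CTR. The miR-16 libraries stood at 11.81, 11.72, 11.78, and 11.93. Every library after 0 h was above it with either mimic, the series overlapped, and the late logFC was -0.055 (counting SE 0.024). PGM2, a related mutase, was at 11.06 with miR-CTR and 11.45 with miR-16 at 48 h, with a late logFC of 0.365 (counting SE 0.029).

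PHKB, the beta subunit of phosphorylase kinase, lies on the forward strand of chromosome 16 (47461123 to 47701523). At 0 h PHKB was at 10.51. In the miR-CTR series it read 10.42, 10.56, 11.08, and 11.41. In the miR-16 series it read 10.37, 10.55, 10.99, and 11.36. The 24 and 48 h libraries were the highest with both mimics and the pairs differed by at most 0.09, giving a late logFC of -0.07 (counting SE 0.030). PHKA2, the liver alpha subunit, had a late logFC of 0.035 (counting SE 0.068), and PHKG2, a catalytic subunit, one of 0.12 (counting SE 0.084).

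**Figure D2:**
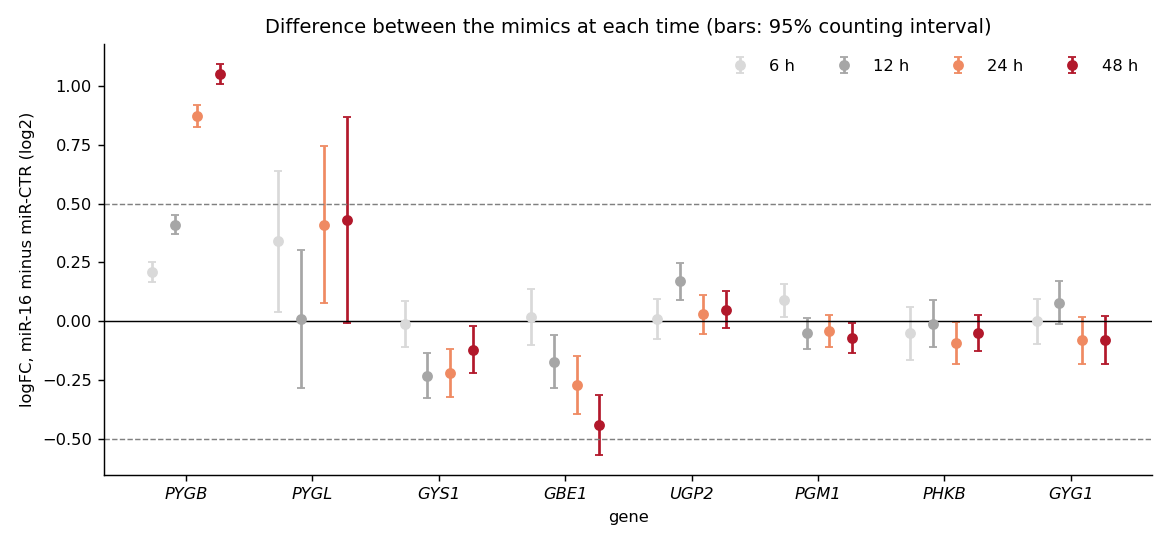
The logFC (miR-16 minus miR-CTR, log2, y axis) of each of the 8 genes at 6, 12, 24, and 48 h (x axis, by gene), with 95% counting intervals as bars and dashed lines at 0.5 and -0.5. PYGB is past 0.5 at 24 and 48 h, PYGL stays between 0.01 and 0.43 with wide bars, and GBE1 reaches -0.44 at 48 h.

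In the late window, 1 of the 8 genes was past 0.5 (PYGB) and 0 were past -0.5, against 7.76% and 5.73% of all genes. One gene in 8 is near the background share, and that gene was known beforehand. The share of all genes above 0.5 was 2.37% in the highest 25% of expression, where PYGB lay, and 19.1% in the lowest 25%. In the early window (6 and 12 h) 0 were past either limit, against 2.04% above and 1.45% below over all genes. Taken alone, 24 h gave PYGB only (7.24% of all genes above 0.5 and 5.26% below -0.5), and 48 h also gave PYGB only (10.4% and 8.96%). Both times together were met by PYGB, as by 4.03% of genes, and no gene of the 8 met them downward, as 2.78% of all genes did. The 7 genes other than PYGB had a median late logFC of -0.07, between -0.355 and 0.42, and the median of all genes was 0.005. With 2 of these 7 above 0 and 5 below, the difference of PYGB was not seen across the list.

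The change since 0 h separated the genes differently, and both mimics shared the same 0 h library. With miR-16, late PYGB was 0.23 above 0 h, and with miR-CTR it was 0.73 below (a change of -0.73). PYGL was below 0 h with both, at -0.455 with miR-16 and at -0.875 with miR-CTR. PHKB was above 0 h with both, at 0.665 and 0.735. GBE1 was at -0.375 with miR-16 and -0.02 with miR-CTR, GYS1 at 0.065 and 0.235, PGM1 at 0.285 and 0.34, GYG1 at -0.255 and -0.175, and UGP2 at -0.005 and -0.045. Past 0.5 were 1 gene above (PHKB) and 0 below with miR-16, against 14.1% and 11.7% of all genes. With miR-CTR there were 1 above (PHKB) and 2 below (PYGB and PYGL), against 11% and 9.79%. Set against the 0 h library, the late logFC of PYGB was made up more of a lower level with miR-CTR than of a higher level with miR-16. That library was taken before transfection. Time in culture and transfection are therefore part of both changes and cannot be told apart from an effect of either mimic.

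Levels were compared between genes per kb of exon, over the union of the annotated exons. At 0 h the order was PYGB with 2192 normalized reads per kb, PGM1 with 722, GYG1 with 525, UGP2 with 393, GYS1 with 338, GBE1 with 227, PHKB with 123, and PYGL with 36.5. Over the 9 libraries the ranges of UGP2 (359 to 404) and GYS1 (338 to 417) overlapped, as did those of GBE1 (161 to 237) and PHKB (112 to 230), so these neighbors were not separated beyond their spread over the conditions. The other neighbors in the order did not overlap. At 48 h PHKB stood above GBE1 with both mimics. The ratio of PYGB to GYS1 per kb, of the enzymes that remove and add glucose units, was 6.48 at 0 h. With miR-CTR it was 4.98, 4.24, 3.28, and 3.35 at 6, 12, 24, and 48 h, and with miR-16 it was 5.80, 6.61, 6.99, and 7.54. With miR-CTR the ratio was below that of 0 h at every time, and with miR-16 it was above it from 12 h.

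**Figure D3:**
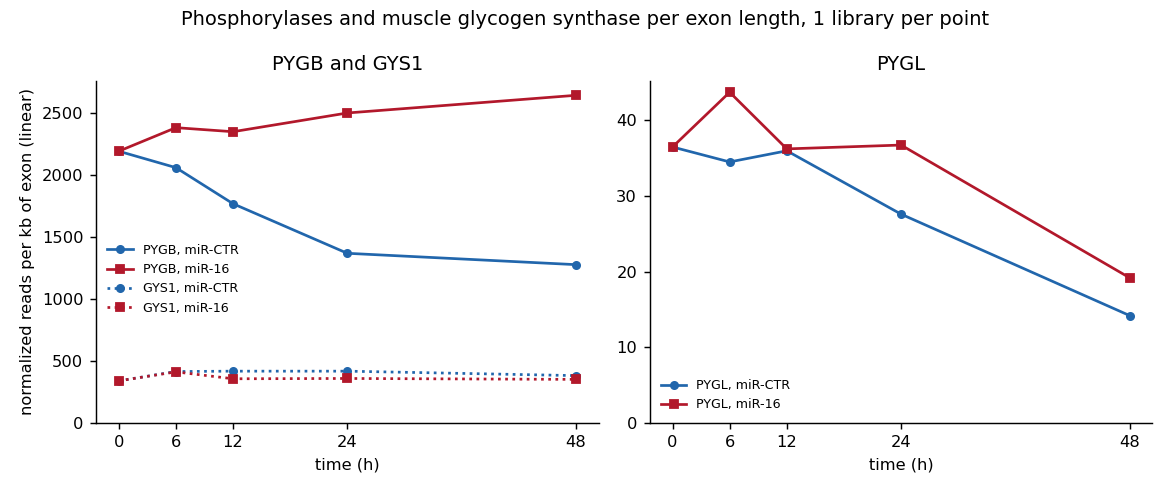
Normalized reads per kb of exon on a linear scale from 0 (y axis) against time in h (x axis), 1 library per point, blue for miR-CTR and red for miR-16, with PYGB (solid) and GYS1 (dotted) at left and PYGL at right. PYGB ends at 2644 with miR-16 and 1277 with miR-CTR, whereas PYGL never exceeds 43.7 and ends at 19.2 and 14.2.

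A wider list of 45 symbols of glycogen enzymes, their kinases and phosphatases, and glucose 6-phosphate handling had 36 rows. In the late window 3 were past 0.5 and 3 past -0.5 (8.33% in each direction, beside the background shares of 7.76% and 5.73%), and the median was 0.01. The list was drawn up by pathway with earlier results of these data known.

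PPP1CC, the gamma catalytic subunit of protein phosphatase 1, which acts on glycogen synthase and phosphorylase, had the highest late logFC of the wider list. At 0 h PPP1CC was at 13.04. The values with miR-CTR were 12.38, 12.04, 11.86, and 11.98. Those with miR-16 were 12.81, 12.92, 12.74, and 13.06. The groups did not overlap, the miR-CTR libraries were the 4 lowest, and the late logFC was 0.98 (counting SE 0.020). Since 0 h, the late change of PPP1CC was -0.14 with miR-16 against -1.12 with miR-CTR. Its 3′UTR held a pair of control matches, shown here because PYGB has a match of the same kind.
PPP1CC, control match, chr12:110720750-110720756, reverse strand: tttttaattcAGTACAAcccataatca
PPP1CC, control match, chr12:110720371-110720377, reverse strand: cacacccctaAGTACAAggtggtatgg
PGM2, control match, chr4:37862216-37862222, forward strand: cataggatatTAGTACAtcgtacacgt
PYGB, PPP1CC, and PGM2 had a late logFC of 0.96, 0.98, and 0.365 and a late change since 0 h with miR-CTR of -0.73, -1.12, and -0.32, beside medians over all genes of 0.005 and 0. A control match was present in 3 of the 36 genes of the wider list (8.33%), not all of them named here. Among all measured protein-coding genes the share was 14.7%. A match is a run of letters and was not tested as a site.

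The other genes past 0.5 were weakly expressed. PGM5, a relative of phosphoglucomutase without the enzyme activity, started at 7.0 and ended at 4.64 with miR-CTR and 5.81 with miR-16, from 28 to 122 reads. Its late logFC was 0.86 (counting SE 0.21). PPP1R3A, a glycogen-targeting subunit of phosphatase 1, had 18 to 78 reads and a late logFC of 0.685 (counting SE 0.27). Both were in the lowest 25% of expression.

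Below -0.5 were PGM2L1, PRKACA, and EPM2A. PGM2L1, a glucose-1,6-bisphosphate synthase, started at 7.74. The miR-CTR libraries read 7.90, 8.51, 8.91, and 8.78, those with miR-16 7.39, 8.03, 8.04, and 7.70, and the groups overlapped. Its late logFC was -0.975 (counting SE 0.083). Its late change since 0 h was 1.105 with miR-CTR against 0.13 with miR-16. PRKACA, a catalytic subunit of protein kinase A that acts upstream of phosphorylase kinase, was at 10.52 at 0 h. With miR-CTR it was 10.76, 10.81, 10.88, and 10.87, and with miR-16 it was 10.63, 10.45, 10.29, and 10.10. The groups did not overlap and the late logFC was -0.68 (counting SE 0.038). EPM2A (laforin, a glycogen phosphatase) started at 7.64. At 24 and 48 h it read 7.98 and 8.44 with miR-CTR, 7.39 and 7.71 with miR-16, with a late logFC of -0.66 (counting SE 0.097). PGM2L1 and PRKACA held miR-16 matches and EPM2A none. Those of the first pair are printed because they lie in genes past -0.5.
PGM2L1, miR-16 match, chr11:74332670-74332677, reverse strand: ttctatgagcTGCTGCTAtcagtacttt
PGM2L1, miR-16 match, chr11:74331881-74331887, reverse strand: acctagagttTGCTGCTcaaatttttc
PRKACA, miR-16 match, chr19:14092414-14092420, reverse strand: gaacctccccGCTGCTAatctcccctg
A miR-16 match was present in 11 of the 36 genes (30.6%), next to the 29.2% of all genes. Genes with a match had late logFC of both signs. GAA and PHKG2 also held a match, with a late logFC of 0.40 and 0.12.

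**Figure D4:**
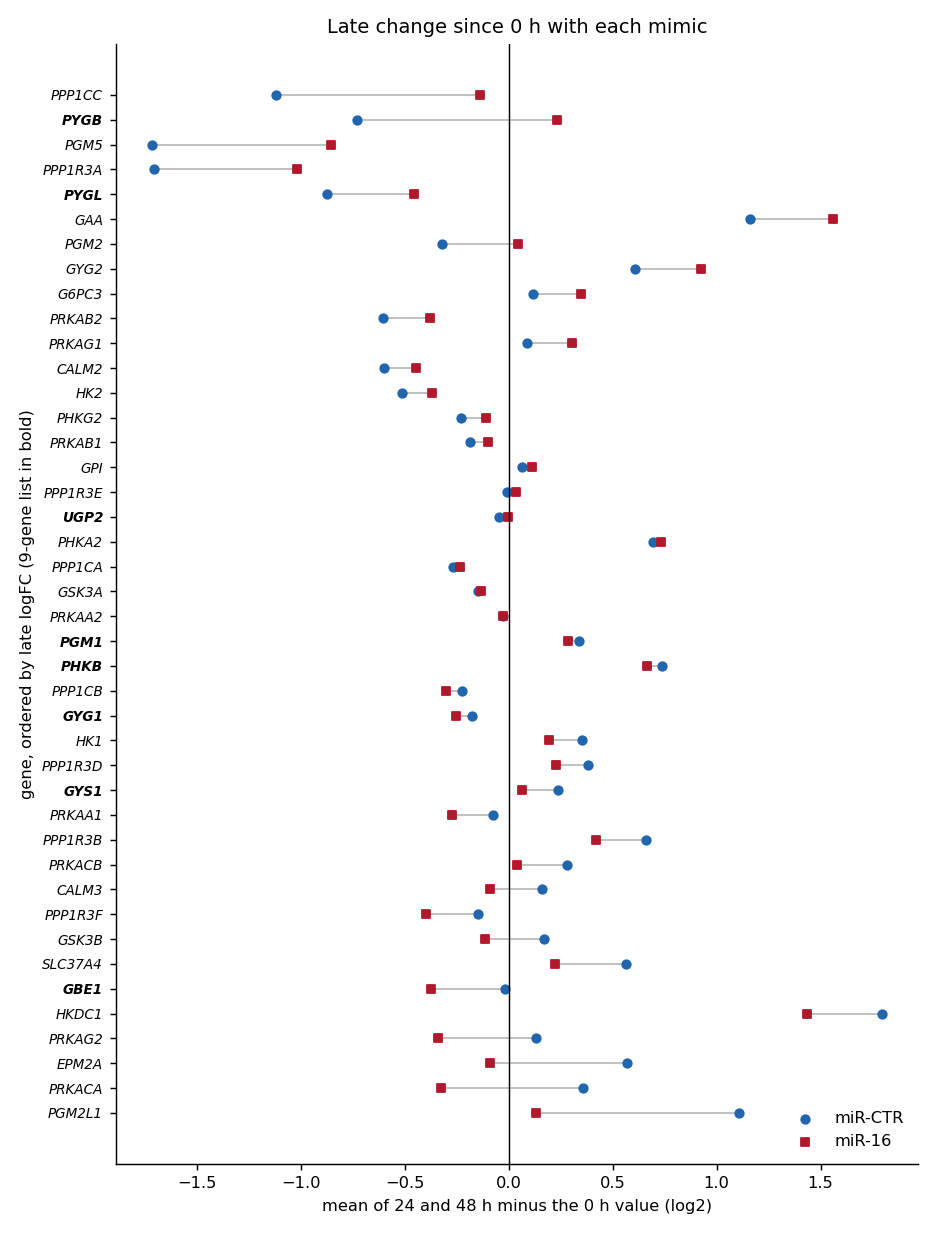
Late change since 0 h (mean of 24 and 48 h minus the 0 h value, log2, x axis) for the 8 genes (bold) and the wider list except 2 genes, ordered by late logFC (y axis), with miR-CTR as blue circles and miR-16 as red squares, 1 library per time. PYGB has a red point at 0.23 and a blue point at -0.73, PHKB has both near 0.7, and PPP1CC has its blue point at -1.12.

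Of the 36 genes, 6 had groups that did not overlap over the 4 times, next to 1 of the 8 and to 7.56% of all genes. The order of PYGB was not found in the wider list, and the reverse, miR-16 below and miR-CTR above 0 h at every time, was found for PRKAG2, a regulatory subunit of AMP-activated kinase, as for 0.66% of all genes.

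Genes beside PYGB were read to see whether its values were shared along chromosome 20. ABHD12, a lipid hydrolase gene on the opposite strand (25294743 to 25390983), overlaps the span of PYGB at its end but shares 0 annotated exon bases with it. Its late logFC was -0.085. ENTPD6, before PYGB, had -0.455, GINS1, a DNA replication factor, had -0.51, and NINL had 0.075. The pseudogene PPIAP2 had 14 to 36 reads and a late logFC of 0.155. None of the 5 neighbors within 200 kb was past 0.5, and 1 was past -0.5, against 7.76% and 5.73% of all genes. With only 5 genes, these counts cannot be set apart from those shares. Exons overlapped for PGM1, which shares 197 bases (4.68% of its exons) with ITGB3BP (late logFC -0.33), and for PHKB, which shares 194 bases (1.64%) with ITFG1 (-0.15). PYGL shares 180 bases (3.75%) with the antisense gene AL358334.3, and PHKB shares 83 (0.70%) with the pseudogene AC007599.1, and neither of these has a row. NDUFA5P11, a pseudogene inside PHKB, had 14 to 25 reads and a late logFC of 0.30. How the counting treated strand is not given in the sources used here.

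**Figure D5:**
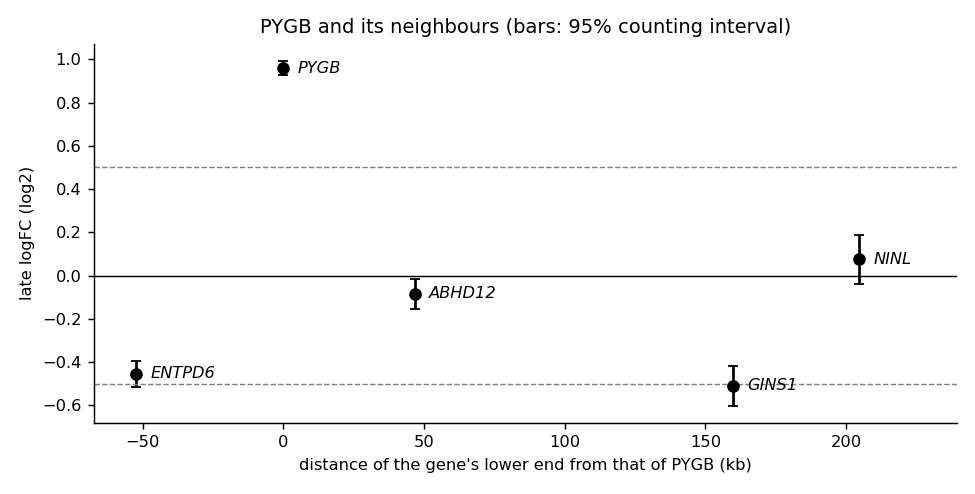
Late logFC (log2, y axis) of PYGB and of its neighbors above the lowest 25% of expression against the distance of each gene's lower end from that of PYGB in kb (x axis), with 95% counting intervals and dashed lines at 0.5 and -0.5. PYGB is at 0.96 and the 4 neighbors lie between -0.51 and 0.075.

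The genes with profiles nearest to that of PYGB were found by the root mean square difference of the log2 values over the 9 libraries, after each gene's own mean was taken out. They were SH2D5 (0.0786), ANKRD16 (0.0938), RASGEF1A (0.112), TUB (0.113), and MED8 (0.113), with late logFC of 0.84, 0.965, 1.005, 0.80, and 0.705. Since 0 h, these genes were at 0.045 to 0.24 with miR-16 and at -0.525 to -0.80 with miR-CTR in the late window. A control match was present in RASGEF1A, TUB, and MED8 (14.7% of all genes) and a miR-16 match in TUB (29.2%). These genes were chosen for their likeness to PYGB, so nothing is read from these matches. Among the other glycogen enzymes the nearest profile was that of UGP2 (0.348), behind 23.0% of all genes, and PYGL was at 0.444, behind 59.5%. In the wider list PPP1CC was at 0.199, behind 1.08%, and PGM2 at 0.247, behind 3.44%.

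Across the series, the 9 libraries held 20272935 to 27374404 reads. Cell identity was checked by 7 melanocyte lineage markers, all with rows, such as TYRP1 at 17.45 to 17.88, and 5 of 6 markers of other cells (PTPRC, CD3E, EPCAM, KRT5, and PECAM1) had no row, while COL1A1 was at 8.04 to 8.86. The mimic was checked by CCND3, a known target of miR-16, whose logFC was -0.12, -0.61, -0.85, and -1.19 at 6, 12, 24, and 48 h.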

How the data were processed

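The authors deposited normalized log2 values per gene symbol and library. Reads were aligned with STAR 2.4.0a and counted with featureCounts (Subread 1.5.0-p3) on hg38, per the labels. The annotation, the strand setting, and the filter on weak genes are not given in the sources used here. The values have the form log2(reads / size factor + 1): within a tolerance of 0.1, 100% of the low values of each library (up to 20 reads) came out whole after division by its own step, 0.853 to 1.149. The step also gave the reads of each gene, from which counting standard errors were derived. These cover counting only. The columns T0, T1, T2, T4, and T5 were read as 0, 6, 12, 24, and 48 h, by order.

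The logFC was miR-16 minus miR-CTR at a time, or the mean over 6 and 12 h (early) or 24 and 48 h (late). Genes past 0.5 in size were counted beside the share of all 14839 genes. Of the symbols, 12985 (87.5%) matched 1 gene of GENCODE version 29. The lists were chosen with earlier results of these data known. Genes named are the 9 listed, the wider-list genes past 0.5 and paralogs, genes overlapping the list or within 200 kb of PYGB, the 5 nearest profiles, CCND3, and, for cell identity, markers of a separate list. GAA, PRKAG2, and, as the example among the melanocyte markers, TYRP1 were chosen after their values were seen. Step recovery and calls were tried on data simulated with counting noise only, which cannot show how calls fare under spread between replicate libraries. Pairing energies used RNAduplex of ViennaRNA 2.7.2, and other steps Python 3.11.15, pandas 2.3.3, numpy 2.4.6, and matplotlib 3.10.9. A few genes of the lists are not reported by name here, and other experiments of the study were not analysed here.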

Additional observations from a re-analysis of the deposited data

Results flagged for a closer look

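PYGB and PRKAG2 moved away from the 0 h library in opposite directions with the mimics at all 4 times. PYGB was above 0 h in every miR-16 library and below it in every miR-CTR library, with a late logFC of 0.96, as were 0.519% of genes in this order. PRKAG2 was at 9.29 at 0 h, at 9.37, 9.48, 9.47, and 9.37 with miR-CTR, and at 9.03, 9.03, 8.95, and 8.95 with miR-16. Its late logFC was -0.47, and 0.66% of genes had that order. The difference between the mimics was not tested, since each condition had 1 library, and both directions use the same 0 h library.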

How the results depend on the processing

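No paired analysis was possible because the groups share only 1 replicate number, and a fit that takes the 4 times as pairs was not run. The late values at 24 h and at 48 h alone each leave out a time. The late logFC of PYGB was 0.87 at 24 h alone, 1.05 at 48 h alone, and 0.23 with the 0 h library as the reference in place of miR-CTR. It was 0.97, 0.96, and 0.97 after centring on the median gene, quantile normalization, and RPM. With the 0 h reference the 1 listed gene past 0.5 was PHKB, not PYGB. Under every other setting it was PYGB. The late logFC of the 7 other genes kept its sign under the 5 alternatives other than the 0 h reference, between 0.35 and 0.43 for PYGL and between -0.44 and -0.27 for GBE1. The wider list gave 1 gene above 0.5 (PPP1CC) in place of 3 when the lowest 25% of expression was left out. Over all 14839 genes, 1151 were above 0.5, and 710 of them were in the lowest 25% of expression. A smaller count after this filter is therefore not particular to the list. With the longest match alone, 0 of the 8 genes held a miR-16 match, against 4.95% of all measured protein-coding genes. Over all annotated 3′UTRs there were 3 of 8 (37.5%), with PHKB added, against 31.4% of the protein-coding genes.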

Other observations

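GAA, the lysosomal enzyme that degrades glycogen outside the phosphorylase route, was the member of the wider list furthest above 0 h with miR-16. It was at 8.84 at 0 h, at 9.23, 9.27, 9.70, and 10.30 with miR-CTR, and at 9.39, 9.22, 9.88, and 10.92 with miR-16. The 48 h libraries were the highest with both mimics, and the late change since 0 h was 1.56 with miR-16 and 1.16 with miR-CTR, a late logFC of 0.40 (counting SE 0.043). Its values were looked at after those of the list were known.

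The lowest predicted energy of pairing between the whole miR-16 and the longest 3′UTR, computed after the data were seen, was -18.8 kcal/mol for PYGB, and 14.4% of the 866 genes with a 3′UTR within 10% of its length were at or below it. The stretch lies at chr20:25296861-25296881 on the forward strand, and capitals mark the bases paired in the prediction.
PYGB, predicted pairing with miR-16: aGCCGATGTcTTtaGTGTTGa
For the other 7 genes, the energy was -17.8 for GYS1 (23.4% at or below), -17 for PHKB (51%), -16.4 for PGM1 (29.9%), -15.8 for GYG1 (54.9%), -14.9 for PYGL (25.6%), -14.2 for GBE1 (71.3%), and -10.7 for UGP2 (93.2%). Such predictions carry no measurement of binding.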
